A study of Homo sapiens with 12 samples.

Results

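MV3 melanoma cells kept in medium from M1 macrophages were compared with MV3 cells kept in medium from M0 macrophages, by the labels that name each sample's medium. The comparison holds 6 of the 12 samples of the study, 3 in each group. MV3 is an established human line from a lymph node metastasis of a melanoma. Cells grown with 10% serum spent 3 h in medium with 1% serum and then 24 h in the test medium, after which polyadenylated RNA was sequenced in reads of 50 nt. Both media came from macrophages made from THP-1, a human monocytic leukaemia line, with the phorbol ester PMA. M0 macrophages received nothing further, and M1 macrophages were also given lipopolysaccharide (LPS) and interferon-gamma. The other 6 samples had medium from macrophages given interleukin 4 and interleukin 13 (M2) or fresh medium that no cells had conditioned (Ctrl). All M0 and M1 cells were thus exposed to products of PMA-treated THP-1 cells, and carry-over of PMA, LPS or interferon-gamma into the media was not measured. The labels do not say whether the samples of a group were grown as separate cultures. The p-values below therefore rest on the variation among these samples alone, and that variation may be technical.

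LPS is a bacterial ligand of a Toll-like receptor and interferon-gamma a lymphocyte cytokine, and macrophages given both secrete inflammatory cytokines, chemokines and other mediators. Tumour cells that receive such mediators are known to signal through STAT, IRF and NF-kB factors, which bind short DNA elements near gene starts. The best known targets are interferon-stimulated, NF-kB and cytokine genes. The account here goes beyond these best known genes, to genes lost, those of metabolism, those of surface proteins and those that encode no protein. Genes described below may themselves be targets of the same factors, which was not tested.

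In all, 14088 genes had enough reads to be tested. Levels are in CPM (counts scaled to a common library size), given as mean ± SD over 3 libraries, and a gene is called when its Benjamini-Hochberg adjusted p from the quasi-likelihood test of edgeR is below 0.05. Of these genes 7354 (52.2%) were called, with 3586 (25.5%) higher and 3768 (26.7%) lower in M1 than in M0, and the median log2 fold change of all of them was -0.01. A change of at least 2-fold was called for 843 genes upward (5.98%) and 451 downward (3.2%). Lists of interferon, NF-kB and cytokine, and cell cycle genes held 122 of the 843 and 25 of the 451. Being outside these lists does not mean that a gene is no target of interferon or NF-kB. With a threshold of 4-fold 235 genes were higher (1.67%) and 58 lower (0.412%). The 3 libraries of each group did not overlap, called or not, in 4098 genes that stood higher in M1 (29.1%) and 4242 that stood lower (30.1%). By type, 3207 of 11842 protein-coding genes were higher (27.1%) and 3457 lower (29.2%), and 656 were at least 2-fold higher (5.54%) and 340 lower (2.87%). Of 607 pseudogenes 96 were higher (15.8%) and 66 lower (10.9%), and 53 were at least 2-fold higher (8.73%) and 15 lower (2.47%), with reads that may belong to their parent genes. Library totals were 21788397 to 29952546 reads in M0 and 32566105 to 40066328 in M1, and a count of 0 in a single library allows up to 3 reads, or 0.0761 to 0.14 CPM. M1 replicate 2 stood apart from the other M1 libraries. M0 replicate 3 had the highest summed level of the cell cycle list in M0, at 9650 CPM beside 7710 CPM in replicate 1 and 6440 CPM in replicate 2. It did not stand apart in GC content. With protein-coding genes split by GC content into 5 classes of equal size, the class of highest GC took 9.83% of the reads on such genes in M1 replicate 2, beside 11.6% and 12.2% in the other M1 libraries and 13% to 13.5% in M0. Values without M0 replicate 3 and M1 replicate 2 are given beside the list counts below that their omission changes by more than 1.5 times.

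The identity of the cells was checked on marker genes. Of 25 macrophage markers 8 had no reads in M0 or M1 and 2 passed the filter on low counts, neither of them called, and their summed level was 1.82 to 1.93 CPM in M0 and 1.86 to 1.99 CPM in M1. Of 11 melanocyte lineage genes 4 were tested, with GPNMB higher, MITF and MC1R lower and PAX3 not called. None was higher and 1 was lower without M0 replicate 3 and M1 replicate 2, and the higher call was also lost without any 1 of M0 replicate 1, M0 replicate 3, M1 replicate 2 and M1 replicate 3.

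Short stretches near the RefSeq starts of 7 genes are shown because these genes, described with their values further on, rose in M1 or, for LINC00460, fell. Each stretch also holds a letter pattern known to be bound by STAT, IRF, NF-kB or AP-1 factors. The sequences are RefSeq promoters of build GRCh38.p14, written 5′ to 3′ on the plus strand, which is the strand of all 7 genes. A RefSeq start can differ from the annotated start of the counted gene. For TRIM69, MIR3142HG and LINC00460 the annotated starts lie upstream of the stretches shown, at positions 44728988, 160438594 and 106374477. Capitals mark the matches: TTCNNNGAA for the gamma-activated site, GAAA-NN-GAAA for the interferon-stimulated response element, GGG-NN-TTTCC for NF-kB and TGANTCA for AP-1, each searched on both strands. Matches of different patterns were allowed to overlap.
KYNU, chr2:142877594-142877693: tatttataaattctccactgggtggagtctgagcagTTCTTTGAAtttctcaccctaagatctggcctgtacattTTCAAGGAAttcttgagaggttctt
TLR3, chr4:186069086-186069165: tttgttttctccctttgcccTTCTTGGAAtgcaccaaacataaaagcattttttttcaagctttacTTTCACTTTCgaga
BTN3A3, chr6:26440504-26440553: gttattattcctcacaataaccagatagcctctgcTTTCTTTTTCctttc
TRIM69, chr15:44736428-44736527: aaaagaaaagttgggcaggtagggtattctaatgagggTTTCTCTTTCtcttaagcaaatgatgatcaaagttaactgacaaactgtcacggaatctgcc
SLAMF8, chr1:159826753-159826852: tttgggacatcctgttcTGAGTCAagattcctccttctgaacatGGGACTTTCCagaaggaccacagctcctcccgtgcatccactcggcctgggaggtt
MIR3142HG, chr5:160468101-160468200: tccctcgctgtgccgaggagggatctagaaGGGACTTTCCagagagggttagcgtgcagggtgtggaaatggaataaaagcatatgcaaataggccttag
LINC00460, chr13:106376484-106376583: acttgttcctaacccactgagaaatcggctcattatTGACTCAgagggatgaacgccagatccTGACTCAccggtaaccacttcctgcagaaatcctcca

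Such matches are a description of the letters and not evidence of binding. A promoter, 250 bases before to 50 after the start, was found for 9766 of the 14088 tested genes. The interferon-stimulated response element was present in 2.95% of these, in 12.5% of the promoters of genes at least 2-fold higher, and in 5.05% of the promoters of those genes once the interferon, NF-kB and cell cycle lists were left out. It was in 6.12% of the promoters of genes at least 2-fold lower, and in 6.59% with those lists left out, so outside the lists its share was not larger among higher than among lower genes. For NF-kB the shares were 2.15% of all, 5.93% and 2.88% of higher genes with and without the lists, and 1.36% and 1.47% of lower genes. AP-1 matches were in 4.71% of all promoters, in 9.49% and 9.62% of those of genes at least 2-fold higher with and without the lists, and in 4.42% of those of genes at least 2-fold lower. The gamma-activated site was in 6.45% of all promoters in 7.21% of those of the higher genes left after the lists were removed and in 7.69% of those of the lower genes left. Further patterns searched were the E-box (CACGTG), in 10.4% of all promoters, 5.53% of those of higher genes outside the lists and 9.52% of those of lower genes outside the lists, and the TEAD site (GGAATG), in 10.9%, 15.1% and 9.16%. The E2F site (TTT-GGCGC) was in 1.1% of all promoters and in 2.38% of those of genes at least 2-fold lower, or 1.83% outside the lists, and the amino acid response element (TGATG-NAAT) in 0.553% of all and 1.2% of those of higher genes outside the lists.

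Genes lost in M1 medium included growth factors, secreted signalling inhibitors and genes of membrane traffic and the cytoskeleton. In 124 genes called lower the mean fell from at least 1 CPM in M0 to below 1 CPM in M1. SFRP1, a secreted antagonist of Wnt ligands, stood at 156, 119 and 213 CPM in the M0 libraries and at 28.9, 34.9 and 31.5 CPM in the M1 libraries. The groups did not overlap, and the fall was 5.14-fold (log2 -2.36 ± 0.26 SE, adjusted p = 1.96e-08). In bulk RNA fewer cells of a kind and less RNA per cell cannot be told apart, here and below. ADAMTSL1, which encodes a secreted matrix protein related to the ADAMTS proteases, had 70.1, 75.01 and 76.1 CPM in M0 and 18.8, 11.5 and 15.3 CPM in M1, again with no overlap (log2 -2.27 ± 0.21 SE, adjusted p = 4.15e-09).

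Among abundant genes outside the cell cycle, CAV1, the main structural protein gene of caveolae, had 418, 384 and 461 CPM in M0 and 129, 140 and 128 CPM in M1. Every M1 library lay below every M0 library, and the change was a 3.18-fold fall (log2 -1.67 ± 0.09 SE, adjusted p = 7.45e-11). ITGA6, the integrin alpha 6 subunit of laminin receptors, fell by 1.402 on the log2 scale, from 708, 673 and 870 CPM to 280, 303 and 270 CPM. The alpha-catenin-like gene CTNNAL1 fell by 1.72 (adjusted p = 4.03e-11) and SRSF7, a splicing factor gene, by 1.49 (adjusted p = 9.87e-07). FAM83D, CDCA8, HJURP and KIF18A, all of mitosis and not on the cell cycle list, also stood among the 10 abundant genes with the largest falls. In all 10, with SFRP1, CAV1, ITGA6, CTNNAL1 and SRSF7 among them, M0 replicate 3 was the highest library.

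Lower-level genes showed larger ratios. DNM1, the dynamin gene of neuronal endocytosis, had 13.5, 9.78 and 17.0 CPM in M0 and 2.46, 1.54 and 2.13 CPM in M1, a 6.55-fold fall (adjusted p = 3.94e-08). DNM1 overlaps CIZ1 on the opposite strand, and the strand setting of the counting is not given in the sources used here, so reads of the pair cannot be told apart. The same holds for SAMHD1 with TLDC2, SLC15A3 with TMEM132A and WARS with WDR25, all on opposite strands, and KCNJ15 with DSCR8, S1PR2 with DNMT1 and SNHG1 with SNORD30 also overlap. Of growth factor genes, HGF, the ligand of the MET receptor, stood at 4.76, 2.79 and 6.80 CPM in M0 and at 1.27, 0.928 and 1.12 CPM in M1. The HGF groups did not overlap (log2 -2.12 ± 0.39 SE, adjusted p = 3.09e-05). FGF1, an acidic fibroblast growth factor gene, fell from 23.1 ± 4.76 to 8.70 ± 0.75 CPM (adjusted p = 1.19e-06), and BMP6 from 1.79 ± 0.31 to 0.594 ± 0.193 CPM (adjusted p = 9.73e-05).

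Growth factor and IGF-binding genes did not move one way: 15 of 43 tested were higher and 15 lower, with a median log2 of 0.09. Over all genes 25.5% were higher and 26.7% lower. Those that rose included VEGFC, a lymphatic endothelial growth factor gene, at 34.6, 29.6 and 38.1 CPM in M0 and 186, 178 and 174 CPM in M1. INHBA, which encodes the activin A subunit, rose from 52.9, 43.1 and 56.4 CPM to 348, 349 and 340 CPM. In neither gene did the groups overlap, and the log2 fold changes were 2.39 ± 0.11 SE and 2.76 ± 0.12 SE.

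Further lost genes were RGS4, an inhibitor of G protein signalling, TNS1, a focal adhesion protein gene, LDB2, a LIM domain-binding cofactor gene, TMEFF2, a transmembrane protein gene, SPTLC3, a subunit gene of the first enzyme of sphingolipid synthesis, and NRGN, a calmodulin-binding neuronal protein gene. Their log2 fold changes lay between -2.51 for RGS4 and -2.21 for TMEFF2. KRT16, a keratin of stressed epithelia, had 5.13, 7.40 and 4.10 CPM in M0 and 1.24, 0.640 and 1.04 CPM in M1. In M2 medium KRT16 was at 11.7 CPM, above the M1 level (adjusted p = 6.61e-09 for M1 against M2, which shares the M1 libraries with the comparison described here). In fresh medium KRT16 was at 0.206 ± 0.021 CPM, below M1 (edgeR adjusted p = 6.21e-05). RGS4 was at 64.5 ± 6.23 CPM in fresh medium and already at 1.17 ± 0.28 CPM in M0. Lost thus refers to the M0 level only.

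**Figure D1:**
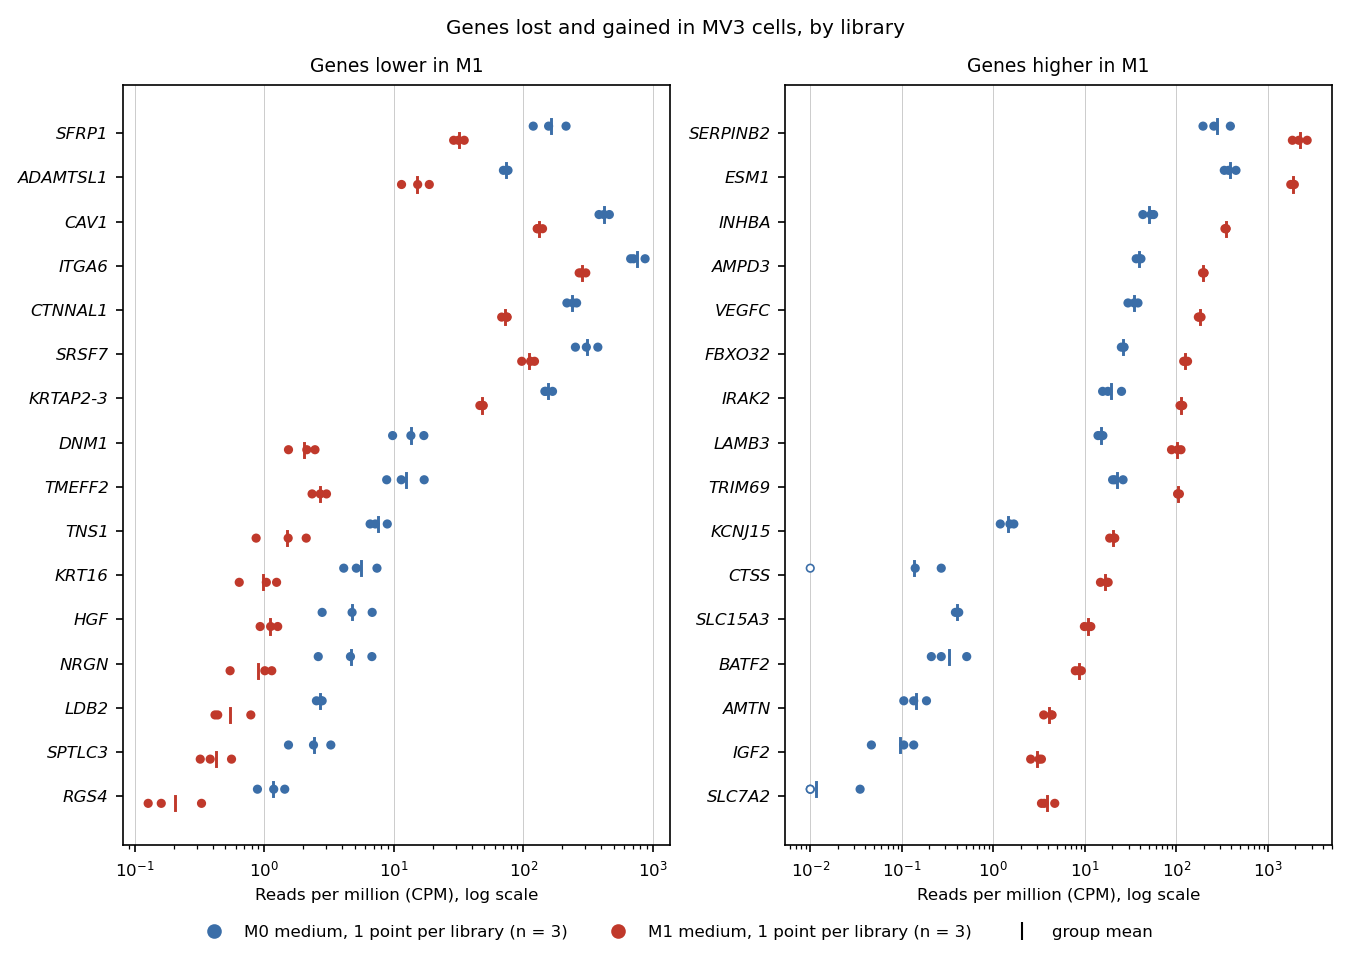
Levels of 16 genes lower and 16 genes higher in M1 medium, in CPM on a log axis, with 1 point per library and a bar at the mean of 3 libraries. Open points at 0.01 mark libraries with 0 reads, and in no gene shown do the M0 and M1 points overlap, with CAV1 at 384 to 461 CPM in M0 and 128 to 140 CPM in M1.

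Genes gained in M1 medium outnumbered those lost, since 264 genes called higher passed from under 1 CPM in M0 to at least 1 CPM in M1. SLC7A2, a transporter gene for arginine and other cationic amino acids on chromosome 8, had 1 read over the M0 libraries and 422 over the M1 libraries, a ratio of 313 with an exact 95% interval of 55.9 to 12400 that covers counting error only. CTSS, a protease that cuts the invariant chain of MHC class II molecules, had 0.270, 0 and 0.140 CPM in M0 and 18.0, 14.8 and 17.4 CPM in M1. All M1 libraries were thus far above all M0 libraries (log2 6.76 ± 0.72 SE, adjusted p = 2.94e-10). It was the 1 gene tested out of 15 on the MHC class II list.

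Other gained genes were BATF2, a basic leucine zipper factor gene, with 0.270, 0.512 and 0.210 CPM in M0 and 8.598, 7.87 and 9.16 CPM in M1, and SLC15A3, a lysosomal peptide and histidine transporter gene, with 0.405, 0.419 and 0.386 CPM in M0 and 10.96, 9.89 and 11.6 CPM in M1. Neither overlapped between groups, and both had a log2 fold change of 4.74. IGF2, a growth factor gene silent in many adult tissues, went from 0.135, 0.0466 and 0.105 CPM to 3.17, 2.56 and 3.35 CPM (adjusted p = 4.09e-08). SLAMF8, a receptor gene of myeloid cells with NF-kB and AP-1 matches in its promoter, had 0.270, 0.186 and 0.526 CPM in M0 and 6.85, 7.10 and 7.06 CPM in M1 (log2 4.36 ± 0.37 SE, adjusted p = 9.85e-10). It overlaps SNHG28 on the opposite strand. The potassium channel gene KCNJ15 rose by log2 3.80 and the epithelial transcription factor gene EHF by log2 4.05, with 2.59 CPM in M1 replicate 2 beside 6.44 and 5.29 CPM in the other M1 libraries.

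Of abundant genes, ESM1, an endothelial proteoglycan gene, rose from 372, 334 and 448 CPM to 1944, 1778 and 1886 CPM, and LAMB3, a laminin-332 subunit gene, from 13.9, 15.7 and 15 CPM to 104, 88.5 and 112 CPM. The groups were apart in both. FBXO32, a ubiquitin ligase gene of muscle wasting, had 26.5, 26.8 and 25.1 CPM in M0 and 120, 132 and 124 CPM in M1. TRIM69, a ubiquitin ligase gene with an interferon-stimulated response element match in its promoter, rose from 22.5 ± 3.23 to 105.0 ± 2.45 CPM (adjusted p = 3.29e-11).

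The respiratory chain, ribosomes and much of central metabolism were lower in M1. All 16 tested genes of ATP synthase, the enzyme that makes ATP from the proton gradient, were called lower, with a median log2 of -0.58, and 36 of 47 nuclear-encoded genes of complex I, which oxidizes NADH, were called lower and 0 higher, with a median of -0.43. Over all genes tested 26.7% were lower and the median was -0.01. The summed level of the ATP synthase genes was 2570, 2680 and 2810 CPM in the M0 libraries and 1950, 2000 and 1940 CPM in the M1 libraries. That of complex I genes was 2010, 2050 and 2190 CPM in M0 and 1610, 1590 and 1630 CPM in M1. The sums did not overlap between groups, and the single falls were small, with 1 ATP synthase gene and 0 complex I genes down by at least 2-fold. ATP5G3, a gene of the membrane ring subunit, had 97.6, 102 and 115 CPM in M0 and 65.2, 60.9 and 65.6 CPM in M1 (log2 -0.71 ± 0.08 SE, adjusted p = 4.67e-06). Of 11 nuclear-encoded cytochrome oxidase genes 10 were lower and 0 higher. The 12 tested genes of the mitochondrial genome were not called by edgeR in either direction, and all mitochondrial transcripts together held 0.00323% to 0.00484% of reads, so little is known of them here.

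Ribosomal genes moved the same way. Of 78 mitochondrial ribosomal protein genes 59 were lower and 2 higher (median log2 -0.37), the exceptions being MRPL53 and MRPS24, named after their values were seen. Of 91 cytosolic ribosomal protein genes 60 were lower and 4 higher (median -0.34), and of 32 ribosome biogenesis genes 23 were lower and 0 higher (median -0.31). FBL, the methyltransferase of ribosomal RNA, had 256, 267 and 284 CPM in M0 and 159, 162 and 167 CPM in M1, with no overlap (log2 -0.72 ± 0.05 SE, adjusted p = 1.89e-07). Many ribosomal protein genes have near-identical processed pseudogenes, so their single values are uncertain. Of 20 cytosolic aminoacyl-tRNA synthetase genes 13 were lower and 1 higher, WARS, the tryptophan enzyme gene, which rose from 1443, 1741 and 1227 CPM to 2556, 2986 and 2699 CPM (adjusted p = 4.32e-06).

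Transcript length moved with these lists. Protein-coding genes were split by the length of their main transcript into 5 classes of equal size. Of the shortest class, 207 to 1850 nt, 45.2% were lower and 13.4% higher, and of the longest class, from 5560 nt, 16.3% were lower and 43.2% higher. Genes of the shortest class took 14.2% to 14.9% of the reads on protein-coding genes in the M0 libraries and 12.7% to 13.3% in the M1 libraries, and genes of the longest class 24.8% to 25.9% and 27.4% to 27.9%. With a correction of each library for length and GC content, added after seeing the data, ATP synthase genes were lower in 16 of 16 (median -0.42), complex I genes in 32 of 47 (median -0.31), mitochondrial ribosomal protein genes in 53 of 78 with 5 higher, cytosolic ribosomal protein genes in 51 of 91 and ribosome biogenesis genes in 24 of 32. Cytochrome oxidase genes dropped from 10 to 5 of 11. Whether the trend with length arose in the cells or in the libraries was not tested.

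**Figure D2:**
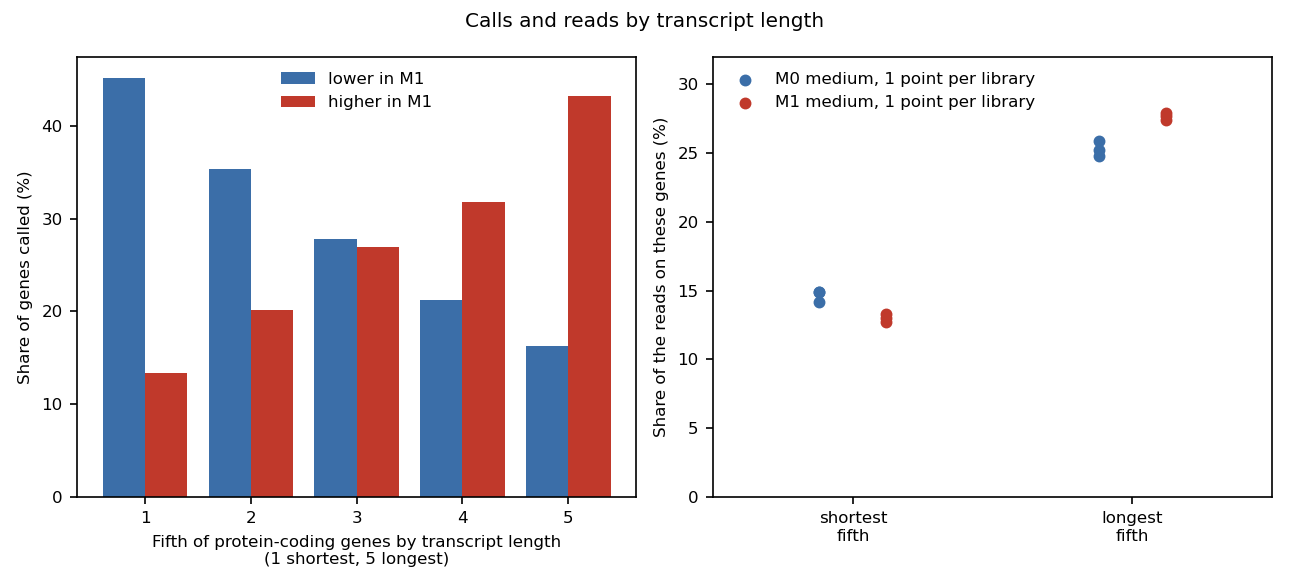
Left, share of protein-coding genes called lower or higher in M1, in percent, for 5 classes of equal size by the length of their main transcript. Right, share of the reads on protein-coding genes in percent that fell on the shortest and the longest class, 1 point per library: the shortest class took 14.2% to 14.9% in M0 and 12.7% to 13.3% in M1.

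Enzymes of glucose and amino acid use followed the same direction. Their counts, here and in the next paragraph, stand beside 25.5% of all genes higher and 26.7% lower. Of 23 glycolysis and glucose or lactate transport genes 14 were lower and 4 higher (median log2 -0.36). ENO1, the enolase gene, stood at 6593, 7161 and 7068 CPM in M0 and at 4590, 4758 and 4770 CPM in M1, and GAPDH at 3722, 3908 and 4365 CPM in M0 and 2546, 2200 and 2592 CPM in M1. Both fell without overlap, by 0.56 and 0.71 on the log2 scale. The 4 that rose were PFKFB3 and PFKFB4, which make the allosteric activator of phosphofructokinase, the neuronal enolase gene ENO2 and the glucose transporter gene SLC2A3, named after their values were seen. PFKFB4 had 2.70, 3.40 and 2.66 CPM in M0 and 11.5, 9.95 and 11.7 CPM in M1 (log2 1.93 ± 0.13 SE, adjusted p = 4.06e-08), and it overlaps UCN2 on the same strand.

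Of 36 genes of pyruvate use and the citric acid cycle 22 were lower and 2 higher (median -0.26), with PC, which makes oxaloacetate from pyruvate, at 12.6, 15.1 and 14.4 CPM in M0 and 6.52, 3.42 and 6.60 CPM in M1. PC overlaps LRFN4 on the opposite strand. Of 18 glutamine, serine and proline genes 13 were lower and 0 higher, and of 12 purine synthesis genes 8 were lower and 0 higher. IMPDH2, the rate-limiting enzyme gene of guanine nucleotide synthesis, fell from 366, 396 and 389 CPM to 234, 205 and 214 CPM, with no overlap (log2 -0.82 ± 0.07 SE, adjusted p = 2.20e-07). In pyrimidine and deoxynucleotide synthesis 9 of 13 were lower and 2 higher, and in the folate and methionine cycle 8 of 13 were lower and 4 higher. Fatty acid oxidation had 13 of 23 lower and 5 higher (median -0.25), and 3 higher with no filter on low counts.

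Against this, single enzymes of tryptophan breakdown, pterin synthesis and nucleotide breakdown rose. KYNU, which cleaves kynurenine and 3-hydroxykynurenine, had 11.2, 9.68 and 14.1 CPM in M0 and 55.0, 54.7 and 55.8 CPM in M1. The M1 libraries lay close together and well above M0 (4.71-fold, log2 2.24 ± 0.16 SE, adjusted p = 1.12e-09). TDO2, a first enzyme gene of the same pathway, rose from 0.630 ± 0.131 to 1.55 ± 0.17 CPM (adjusted p = 0.000165). IDO1, the other first enzyme gene and a known interferon target, was too low to be tested, with 0 reads in M0 and 15 in M1, or at least 3.71-fold higher against a floor of 3 reads over the group, and the exact 95% interval of the ratio starts at 2.66. QPRT, which leads from quinolinate to NAD, fell from 2.63, 2.05 and 3.54 CPM to 0.888, 0.416 and 0.682 CPM, and KYAT1, a kynurenine aminotransferase gene, fell by 1.73. Of the 7 tested genes of the list 2 rose and 4 fell, beside 25.5% of all genes higher and 26.7% lower.

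GCH1, the entry enzyme gene of tetrahydrobiopterin synthesis, rose from 5.09, 5.96 and 4.66 CPM to 17.9, 15.97 and 15.8 CPM, while GCHFR, the feedback inhibitor of that enzyme, fell from 0.776, 1.16 and 1.33 CPM to 0.304, 0.0960 and 0.327 CPM. The groups did not overlap in either (adjusted p = 1.34e-07 and 0.000104). GCHFR overlaps DNAJC17 on the opposite strand. Of 26 nucleotide salvage and breakdown genes 7 were higher and 11 lower, beside 25.5% of all genes higher and 26.7% lower. The share of this list higher is near that of all genes. AMPD3, an AMP deaminase gene, had 39.4, 41.0 and 36.4 CPM in M0 and 193, 201 and 199 CPM in M1, and SAMHD1, which degrades deoxynucleotide triphosphates and restricts viruses, 60.5, 51.4 and 65.7 CPM in M0 and 288, 318 and 295 CPM in M1. In both genes the libraries of a group lay close together and the groups did not overlap, with log2 fold changes of 2.35 ± 0.05 SE and 2.34 ± 0.11 SE. TYMP, the thymidine phosphorylase gene, rose by log2 2.76 and overlaps ODF3B on the same strand.

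Lists of lipid and iron genes differed in direction, beside 25.5% of all genes higher and 26.7% lower. Of 23 sterol synthesis genes 6 were higher and 7 lower, and 4 lower without M0 replicate 3. Of 17 genes of fatty acid synthesis, desaturation and activation 4 were higher and 5 lower, and 3 lower without M0 replicate 3. Of 33 glycerolipid and phospholipid genes 15 were higher and 8 lower (median log2 0.19), and the 8 became 4 without M0 replicate 3 and 5 without M1 replicate 2 or without both. PLA2G4C, a cytosolic phospholipase A2 gene, rose from 1.42, 1.72 and 1.33 CPM to 7.76, 6.14 and 6.79 CPM (adjusted p = 3.56e-08). ABCA1, the exporter of cholesterol to lipoproteins, had 164, 178 and 112 CPM in M0 and 705, 682 and 676 CPM in M1. M0 replicate 3 was the lowest library, and the groups did not overlap (log2 2.19 ± 0.21 SE, adjusted p = 4.22e-09). Of 19 iron and haem genes 8 were higher and 5 lower, with FTH1, the ferritin heavy chain gene, at 349, 390 and 276 CPM in M0 and 817, 888 and 873 CPM in M1, and the iron transporter gene SLC11A2 at 26.4, 25.3 and 26.0 CPM in M0 and 56.1, 53.7 and 53.6 CPM in M1. FTH1 has processed pseudogenes and overlaps BEST1 on the opposite strand, so its reads are uncertain. Of haem synthesis enzymes, named after their values were seen, UROD, UROS, ALAD and PPOX fell by 0.53, 0.46, 0.71 and 0.41 on the log2 scale, while ALAS1 and CPOX rose by 0.17 and 0.38.

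**Figure D3:**
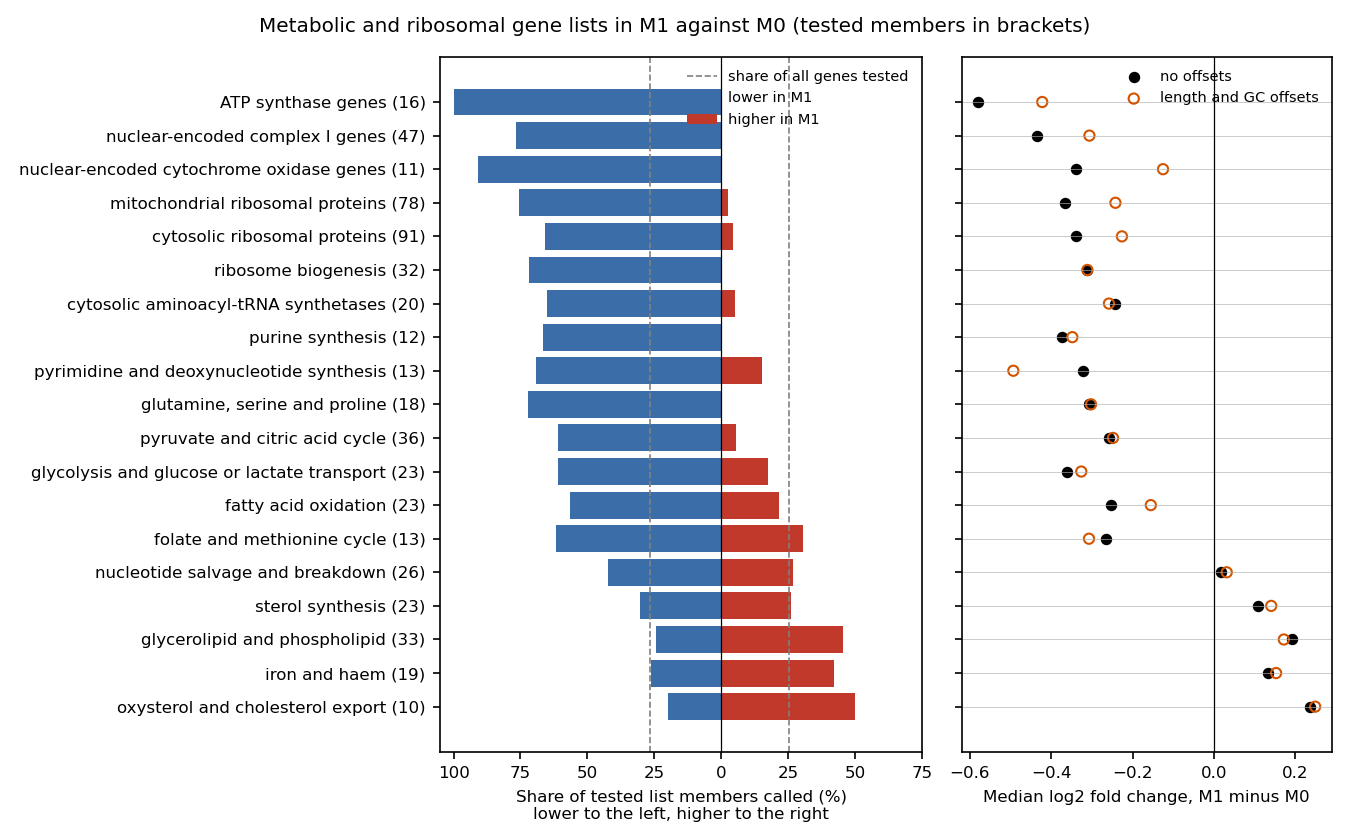
Left, share of the tested members of 19 lists called lower (to the left) or higher (to the right) in M1, in percent, with dashed lines at the shares over all genes tested, 26.7% and 25.5%. Right, median log2 fold change of each list without and with offsets for transcript length and GC content: ATP synthase genes stand at -0.58 and -0.42.

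Genes of secreted complement proteins and of ligands of lymphocytes rose. Of 10 tested complement genes 7 were higher and 0 lower (median log2 1.66), beside 25.5% of all genes higher and 26.7% lower. With the correction for length and GC content 2 were lower, and 1 stood lower in every M1 library without a call. C1S, a protease of the first complement component, on chromosome 12 (chr12:6988259-7071032, GRCh38), had 1.22, 1.07 and 1.402 CPM in M0 and 99.3, 116 and 90.0 CPM in M1. The libraries of the 2 groups were far apart, an 81.7-fold rise (log2 6.35 ± 0.15 SE, adjusted p = 7.80e-13). C1R, which encodes the partner protease of C1S, rose from 5.74, 6.38 and 5.36 CPM to 52.3, 49.1 and 48.9 CPM, and C3, the central component, from 1.52, 1.02 and 1.16 CPM to 17.0, 10.7 and 15.1 CPM. Of genes of membrane-bound complement inhibitors, CD55 had 82.5 ± 3.34 and 82.3 ± 3.65 CPM and CD59 1390 ± 118 and 1350 ± 11.1 CPM in M0 and M1, neither called, and CD46 rose by log2 0.23. C1S and C1R overlap EMG1 and C1RL on the same strand.

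Of 24 tested ligands of natural killer and T cells 15 were higher and 2 lower (median log2 0.61). Over all genes 25.5% were higher and 26.7% lower. The 3 butyrophilin genes BTN3A1, BTN3A2 and BTN3A3, of a family that takes part in activation of a subset of gamma delta T cells by phosphorylated metabolites, lie on chromosome 6. BTN3A1 stood at 3.34, 2.19 and 2.52 CPM in M0 and 20.8, 19.3 and 21.9 CPM in M1, BTN3A2 at 3.17, 2.98 and 4.07 CPM in M0 and 14.3, 10.9 and 12.1 CPM in M1, and BTN3A3 at 1.35, 1.12 and 0.806 CPM in M0 and 6.85, 5.89 and 6.55 CPM in M1. None of the 3 overlapped between groups, and the log2 fold changes were 2.92 ± 0.18, 1.86 ± 0.18 and 2.56 ± 0.21 SE, although near-identical sequence between them makes the split of reads uncertain. HLA-E, a ligand of the inhibitory NKG2A receptor, had 89.8, 99.6 and 91.2 CPM in M0 and 257, 250 and 268 CPM in M1, and MICB, a ligand of the activating NKG2D receptor, 8.33, 7.50 and 6.45 CPM in M0 and 15.5, 15.97 and 15.6 CPM in M1. Both were higher in every M1 library (adjusted p = 8.37e-11 and 6.42e-07). Without M0 replicate 3 and M1 replicate 2, and without any 1 of M0 replicates 1 and 3 and M1 replicates 1 and 3, 1 was lower. The 2 that fell were NECTIN3 and CD274, by 0.28 and 0.51 on the log2 scale, named after their values were seen, and CD47 and PVR were not called, at 117 ± 14.99 and 534 ± 26.4 CPM in M0 and 114 ± 4.91 and 574 ± 10.6 CPM in M1.

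Receptors for cytokines and microbial products were more often higher than lower, beside 25.5% of all genes higher and 26.7% lower. Of 29 interleukin and interferon receptor genes 17 were higher and 2 lower (median log2 0.43), and 1 was lower without M0 replicate 3 and M1 replicate 2 and 0 or 1 without any single M0 or M1 library. IFNAR2, a subunit of the type I interferon receptor, had 7.56, 8.10 and 5.71 CPM in M0 and 21.4, 24.0 and 21.5 CPM in M1, and IL6ST, the shared signalling chain of the interleukin 6 family, 436, 417 and 418 CPM in M0 and 833, 851 and 832 CPM in M1. The groups were separate in both genes. TLR3, a receptor of double-stranded RNA with matches to the interferon-stimulated response element and the gamma-activated site printed above, had 0.236, 0.419 and 0.631 CPM in M0 and 2.00, 2.21 and 1.94 CPM in M1 (log2 2.25 ± 0.36 SE, adjusted p = 3.63e-05). Of 7 tested genes of Toll-like receptors and their adaptors 5 were higher and 0 lower, and 3 were higher without M1 replicate 3.

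Adhesion genes were mixed. Of 19 genes named for integrins 7 were higher and 5 lower (median log2 -0.11), beside 25.5% of all genes higher and 26.7% lower. The share of integrin genes lower is near that of all genes. ITGA2, the collagen-binding alpha 2 subunit, had 206, 152 and 271 CPM in M0 and 947, 756 and 900 CPM in M1, ITGB3, the beta 3 subunit of the vitronectin receptor, 1.45, 1.86 and 1.09 CPM in M0 and 8.70, 9.12 and 7.88 CPM in M1, and ITGB8, the beta 8 subunit, 1.42, 0.885 and 1.23 CPM in M0 and 8.01, 5.22 and 6.11 CPM in M1. All 3 rose without overlap (log2 2.05, 2.56 and 2.43), as ITGA6 fell. The tight junction gene CLDN1 rose from 7.02, 5.31 and 7.96 CPM to 38.3, 25.8 and 35.9 CPM (adjusted p = 8.50e-08), and CD82, a tetraspanin gene known as a suppressor of metastasis, from 1.79, 1.49 and 3.12 CPM to 13.1, 8.67 and 12.5 CPM (adjusted p = 5.28e-07). Of 23 matrix collagen and elastic fibre genes 12 were higher and 3 lower. FN1, the fibronectin gene and the most abundant of these by reads, had 4056, 4335 and 3324 CPM in M0 and 6463, 6472 and 6209 CPM in M1 (log2 0.71 ± 0.12 SE, adjusted p = 3.21e-06), and COL8A1 fell from 21.1 ± 3.50 to 9.09 ± 1.74 CPM.

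Guidance, peptide and lipid receptors changed as well, beside 25.5% of all genes higher and 26.7% lower. Of 31 semaphorin, plexin and axon guidance genes 18 were higher and 5 lower (median log2 0.36), with SEMA6D, a transmembrane semaphorin gene, at 4.15, 2.79 and 4.80 CPM in M0 and 24.6, 16.2 and 23.3 CPM in M1 (adjusted p = 5.19e-07). DCC, a netrin receptor gene, went the other way, from 3.71, 2.89 and 5.40 CPM to 0.634, 0.672 and 0.709 CPM. Of 93 tested G protein-coupled receptor genes 38 were higher and 17 lower (median 0.32). The protease-activated receptor gene F2RL1 rose from 18.1, 17.9 and 17.3 CPM to 68.8, 58.6 and 65.2 CPM. Receptors of sphingosine 1-phosphate parted: S1PR1 fell by 1.11 on the log2 scale while S1PR2 and S1PR3 rose by 1.34 and 1.28.

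Beside 25.5% higher and 26.7% lower over all genes, 76 of 209 solute carrier genes were higher and 35 lower (median log2 0.11), and 29 of 59 ion channel genes other than potassium channels were higher and 5 lower (median 0.28). SLC41A2, a magnesium transporter gene, had 11.5, 13.04 and 12.8 CPM in M0 and 43.4, 44.4 and 42.7 CPM in M1 with no overlap (adjusted p = 2.64e-10). The mitochondrial dicarboxylate carrier gene SLC25A10 fell from 4.49, 5.21 and 5.64 CPM to 1.67, 1.02 and 1.47 CPM (adjusted p = 1.80e-05). NT5E, the CD73 enzyme that makes adenosine outside the cell, rose by log2 0.76 ± 0.01 SE, from 515, 516 and 514 CPM to 867, 890 and 866 CPM.

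**Figure D4:**
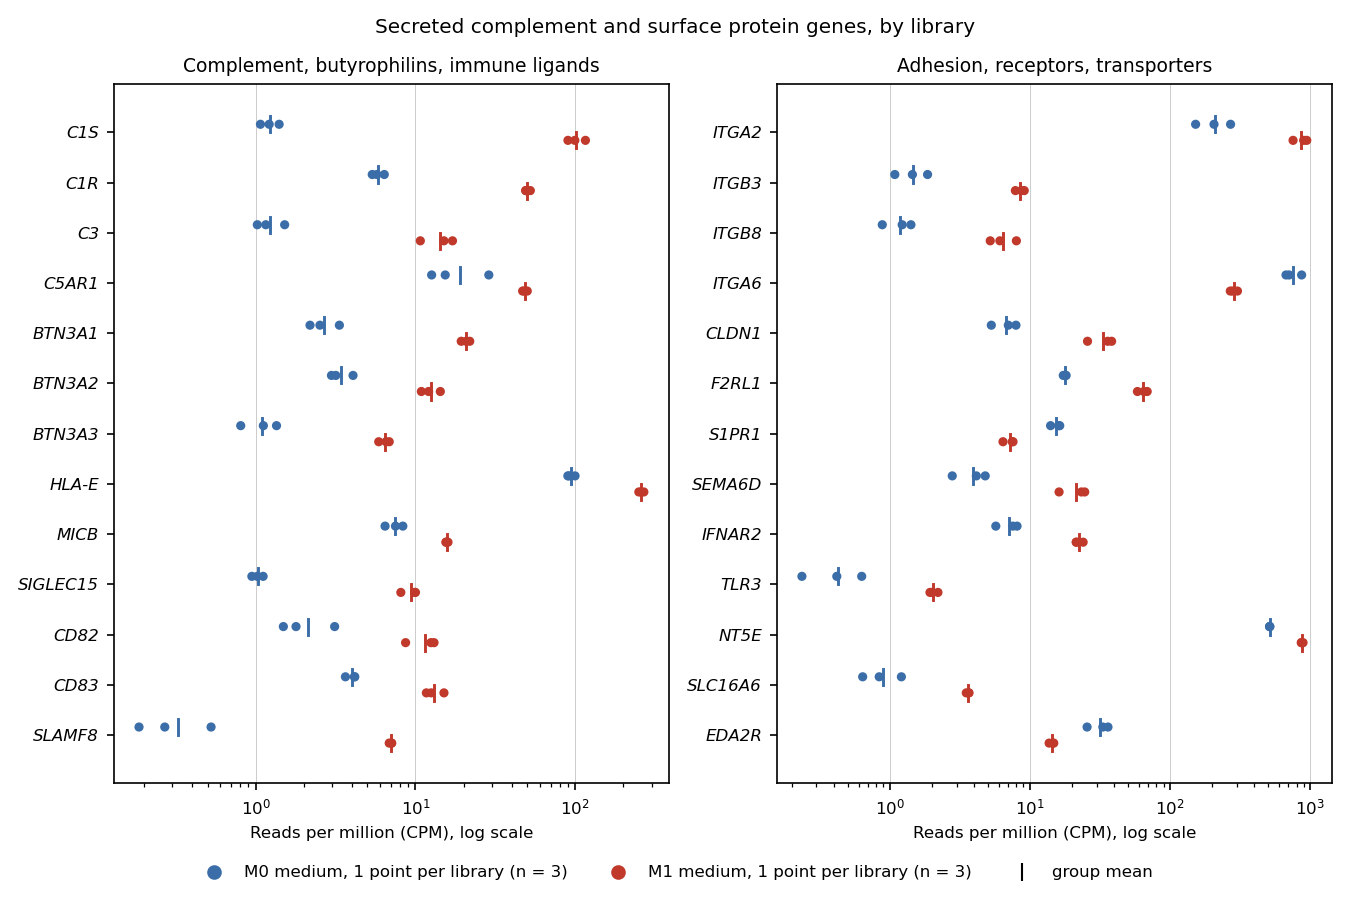
Levels of 26 genes of complement and surface proteins in M0 and M1 medium, in CPM on a log axis, with 1 point per library and a bar at the mean of 3 libraries. ITGA6, S1PR1 and EDA2R lie lower in M1 and the other 23 higher, with C1S at 1.07 to 1.402 CPM in M0 and 90.0 to 116 CPM in M1.

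Genes that encode no protein changed in both directions. Of 1581 tested long noncoding genes 273 were higher (17.3%) and 241 lower (15.2%), and at least 2-fold changes were called for 127 upward (8.03%) and 94 downward (5.95%). Without M0 replicate 3 and M1 replicate 2, 178 were higher and 162 lower. Another gene overlaps 693 of the 1581 in the annotation, and among the 888 with no overlap 164 were higher and 130 lower. Noncoding genes held 0.622% to 0.660% of reads in M0 and M1 alike.

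LINC00707, an intergenic noncoding gene on chromosome 10 (chr10:6779549-6879450, GRCh38), had 11.6, 11.1 and 17.3 CPM in M0 and 1.45, 0.800 and 1.25 CPM in M1. It was the noncoding gene with the largest fall by the rule for named genes, 11.2-fold without overlap (log2 -3.49 ± 0.32 SE, adjusted p = 4.22e-09). LINC00460, whose printed promoter holds a pair of AP-1 matches, fell from 2.50, 2.65 and 2.52 CPM to 0.228, 0.384 and 0.545 CPM (log2 -2.73 ± 0.31 SE, adjusted p = 1.94e-06). Numbered LINC genes as a whole had 34 of 157 higher and 22 lower, near the 17.3% and 15.2% of all long noncoding genes. The noncoding genes DANCR and DLEU2 fell without overlap by 1.65 and 1.57 on the log2 scale, and DLEU2 overlaps TRIM13 on the opposite strand.

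Hosts of small nucleolar RNAs, whose introns hold the guides of ribosomal RNA modification, were lower. Of 21 tested hosts named SNHG 13 were lower and 1 higher (median log2 -0.69), and their summed level was 697, 664 and 692 CPM in M0 and 383, 386 and 378 CPM in M1. SNHG1 had 154, 116 and 174 CPM in M0 and 45.8, 52.1 and 43.5 CPM in M1, SNHG17 205, 221 and 196 CPM in M0 and 110, 109 and 111 CPM in M1, and SNHG8 62.5, 61.5 and 51.8 CPM in M0 and 29.4, 22.9 and 30.6 CPM in M1. The groups were separate in all 3, with falls of 1.65, 0.92 and 1.08 on the log2 scale. SNHG18 was the 1 that rose, named after its values were seen, from 9.39 ± 0.65 to 14.8 ± 0.51 CPM. With the correction for length and GC content 13 were lower and 1 higher (median -0.66). Another pair of snoRNA hosts, GAS5 and ZFAS1, was not called (log2 -0.19 and -0.11).

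Of 21 tested microRNA host genes 5 were higher and 1 lower, beside 17.3% and 15.2% of all long noncoding genes. The counts became 3 higher and 2 lower without M1 replicate 2, 2 higher and 3 lower without M0 replicate 3 as well, and 6 higher and 3 lower with the correction for length and GC content. Mature microRNAs were not measured by these libraries. MIR3142HG, on chromosome 5 (chr5:160438594-160487426, GRCh38), had 1.69, 1.82 and 2.45 CPM in M0 and 12.3, 20.6 and 11.4 CPM in M1. M1 replicate 2 was the highest library and the groups did not overlap (7.38-fold, log2 2.88 ± 0.31 SE, adjusted p = 1.76e-07). MIR22HG rose from 32.7, 45.7 and 30.0 CPM to 58.1, 114 and 63.9 CPM, again highest in M1 replicate 2 (adjusted p = 0.00143). The others called higher were MIR17HG, MIR181A1HG and MIR193BHG. MIR155HG, the host of an inflammation-linked microRNA, was not called, at 1.25 ± 0.15 CPM in M0 and 1.26 ± 0.34 CPM in M1. A selection of 5 RefSeq mature microRNAs from the spans of 3 of the hosts that rose is shown, with the seed, bases 2 to 8, in capitals. Of these 5, miR-17-5p and miR-20a-5p have the same seed.
hsa-miR-146a-5p (in MIR3142HG): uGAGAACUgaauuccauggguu
hsa-miR-3142 (in MIR3142HG): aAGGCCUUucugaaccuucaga
hsa-miR-22-3p (in MIR22HG): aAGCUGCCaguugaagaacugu
hsa-miR-17-5p (in MIR17HG): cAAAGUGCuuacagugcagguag
hsa-miR-20a-5p (in MIR17HG): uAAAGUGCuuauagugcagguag

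Of 27 noncoding RNAs listed by name 10 were higher and 6 lower, and 8 were higher and 9 lower without M0 replicate 3 and M1 replicate 2. MALAT1 had 45.9, 33.5 and 33.0 CPM in M0 and 56.4, 85.3 and 55.8 CPM in M1 (log2 0.81 ± 0.25 SE, adjusted p = 0.0103), and TUG1 153, 154 and 133 CPM in M0 and 226, 278 and 228 CPM in M1 (log2 0.73 ± 0.12 SE, adjusted p = 1.15e-05). In both M1 replicate 2 was the highest library, and the groups did not overlap. NEAT1, the RNA of paraspeckles, was at 39.1 ± 10.5 and 45.1 ± 4.62 CPM and was not called. Gains from near 0 were led by AL356234.2, an intergenic gene on chromosome 6, with 0.0337, 0.0466 and 0 CPM in M0 and 1.90, 2.14 and 1.69 CPM in M1. Its reads were 2 in M0 and 204 in M1, a ratio of 75.7 with an exact 95% interval of 20.7 to 629 (edgeR adjusted p = 5.87e-08). PSMB8-AS1 and BISPR, called higher by log2 2.82 and 1.94, overlap PSMB8, PSMB9 and TAP1 and, for BISPR, MVB12A, and share reads with them in unknown part.

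**Figure D5:**
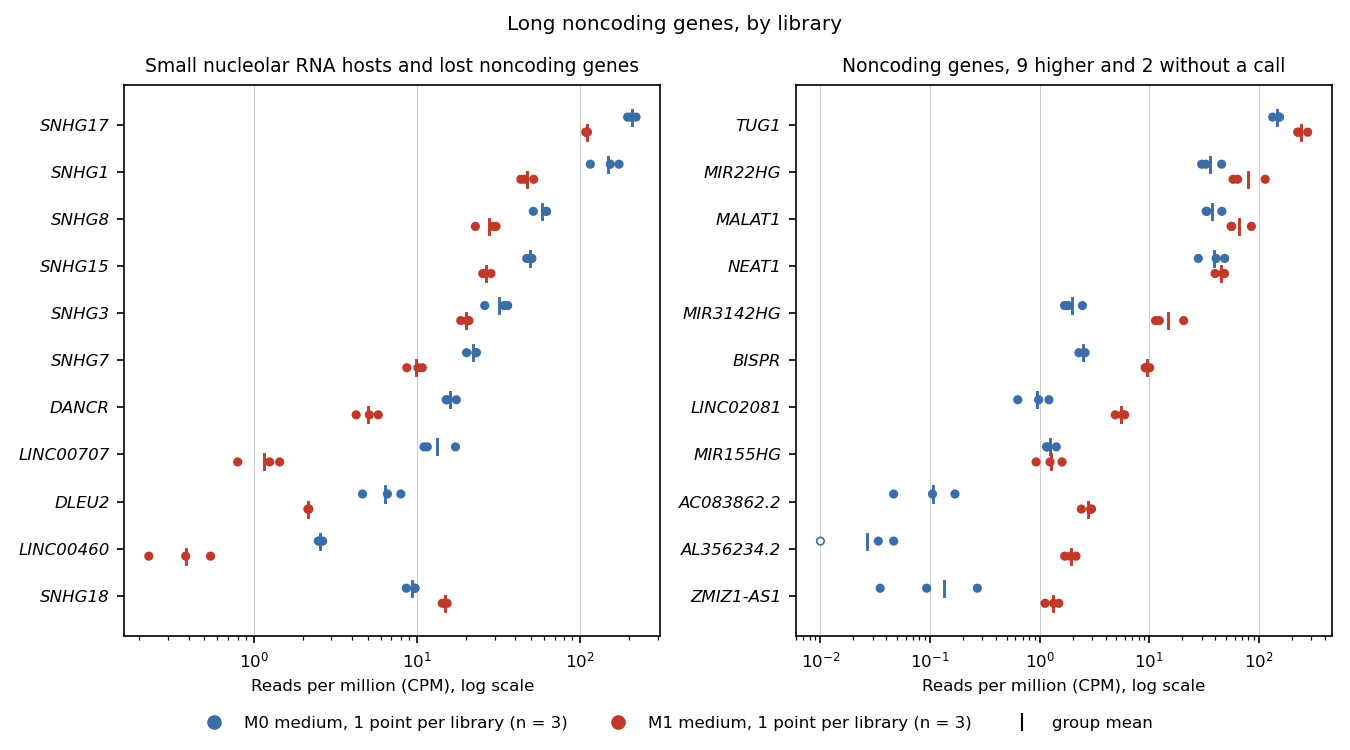
Levels of 22 long noncoding genes in M0 and M1 medium, in CPM on a log axis, with 1 point per library, a bar at the mean of 3 libraries and an open point at 0.01 for a library with 0 reads. In the left panel SNHG18 alone is higher in M1, and in the right panel NEAT1 and MIR155HG overlap between groups, the latter at 1.25 CPM in M0 and 1.26 CPM in M1.

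Most histone genes with enough reads rose. Of 72 listed, 19 were tested. Of these, 13 were higher and 0 lower (median log2 1.09), 1 being lower without M0 replicate 1 or M1 replicate 3. In all, 10 were at least 2-fold higher, where 5.98% of all genes were. Among those too low to be tested, HIST2H2AC had 16 reads in M0 and 1 in M1, and HIST1H4F 12 and 1. Replication-dependent histone transcripts normally end without a poly(A) tail, and the libraries were made from polyadenylated RNA. Whether the reads come from tailed transcripts was not tested. HIST1H2AC had 23.9, 16.3 and 21.0 CPM in M0 and 44.4, 40.7 and 45.9 CPM in M1, HIST2H2BE 3.34, 3.21 and 2.49 CPM in M0 and 13.5, 9.60 and 13.6 CPM in M1, and HIST1H2BD 2.02, 1.91 and 1.82 CPM in M0 and 6.54, 4.77 and 7.23 CPM in M1. None overlapped between groups, with log2 fold changes of 1.09, 2.02 and 1.69. Cell cycle genes stood the other way, with 44 of 51 lower and 4 higher, and the part of this in the histone counts was not tested.

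Levels in M2 medium place some of these genes. The test of M1 against M2 shares the M1 libraries with the comparison above, so the 2 are not independent. KYNU stood at 7.27 ± 1.11 CPM in M2, CLDN1 at 3.10 ± 0.45 CPM, CD82 at 0.717 ± 0.135 CPM and LINC00707 at 10.4 ± 1.55 CPM, each differing between M1 and M2 by edgeR (adjusted p of 6.80e-11, 1.95e-09, 9.15e-09 and 1.92e-08). SFRP1 and CAV1 were between M0 and M1 in level, at 114 ± 3.73 and 269 ± 2.57 CPM, and both were lower in M1 than in M2 (adjusted p = 3.41e-07 and 2.50e-08). HGF, MIR22HG and the anaphylatoxin receptor gene C5AR1 were at 1.37 ± 0.275, 79.3 ± 22.7 and 38.0 ± 6.06 CPM in M2, and a difference between M1 and M2 was not called (adjusted p = 0.509, 0.976 and 0.203). C5AR1 had 15.3, 28.8 and 12.6 CPM in M0 and 46.8, 50.05 and 47.8 CPM in M1. In fresh medium C5AR1 was at 0.0973 ± 0.0512 CPM and SFRP1 at 1016 ± 142 CPM.

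Transcription factor and further surface lists were described by counts, to be read against 25.5% of all genes higher and 26.7% lower. Of 98 homeobox, SOX, FOX and KLF factor genes 34 were higher and 10 lower (median log2 0.27), and of 343 zinc finger genes named ZNF 92 were higher and 49 lower (median 0.10). The share of zinc finger genes higher is near that of all genes, and the 92 became 55 without M0 replicate 3 and M1 replicate 2. Wnt ligands, receptors and inhibitors had 11 of 29 higher and 5 lower (3 lower with only the M0 and M1 libraries in the fit), TNF receptor family genes 8 of 17 higher and 4 lower, and hyaluronan genes 5 of 10 higher and 1 lower. Glutathione and peroxide genes had 9 of 17 lower and 3 higher, and 5 higher without M0 replicate 2. Noncoding genes named as antisense had 63 of 297 lower and 40 higher. These are to be read against all long noncoding genes, 15.2% lower and 17.3% higher. The 40 became 25 without M1 replicate 1 and 26 without M0 replicate 3 and M1 replicate 2.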

How the data were processed

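The authors deposited raw read counts per gene for 12 libraries, and a table of variance-stabilized values on a scale that rises as log2 of the count, which is recorded in the deposited table's name. Per the submitters' processing notes, FastQC 0.11.7, Trimmomatic 0.36, Bowtie2 2.2.3, STAR 2.5.4b, DESeq2 1.20.0 and build hg38 were used, with no roles stated. The counting tool and strand setting were not given in the sources used here, and a wrong or absent strand setting would mix reads of overlapping genes.

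From the deposited counts, edgeR 4.0.16 (R 4.3.3) fitted 4 group means to all 12 libraries with TMM scaling and its low-count filter (minimum count 10, minimum total 15), and M1 was tested against M0 by the quasi-likelihood F test with Benjamini-Hochberg adjustment over all 14088 genes. SE values come from log2 CPM (prior count 2) of the 3 libraries in each group. The scripts were tested on simulated data. Alternatives were DESeq2 1.42.0, limma 3.58.1 on the deposited variance-stabilized values, other scaling and no low-count filter. Others were M0 and M1 libraries alone, a replicate block, each M0 and M1 library left out and M2 replicate 2 left out. Added after seeing the data were offsets for length and GC content and the joint omission of M0 replicate 3 and M1 replicate 2. Intervals and floors cover counting error only.

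Of 58288 identifiers 58022 matched GENCODE 29 without the version. Genes were named by rule. Outside the interferon, NF-kB and cell cycle lists, the 20 called protein-coding genes with the largest fall from at least 1 CPM were taken. To these came the 20 with the largest gain and the 10 each way among genes of at least 100 CPM and among noncoding genes. In all of these the groups did not overlap. Of the 80 lists, all but the marker, interferon, NF-kB and cell cycle lists gave their 3 called members with the largest change. These members had at least 1 CPM in the higher group. Further genes were named for their role, after their values were seen. The members and lists were chosen with earlier results of these data known. Some named genes are not reported here.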

Additional observations from a re-analysis of the deposited data

How the results depend on the processing

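Of 265 named genes, 257 had the same direction and call in all 17 settings, and none reversed. Genes named by rule were picked as called, and many as most changed, in these same libraries. Their agreement therefore says little of the other calls. PGLS, ELOVL4, DHCR7, JAG1, MIR193BHG, TGFB2 and CDH4 were among those that changed their call in at least 1 setting, MIR193BHG losing it without M0 replicate 3 and M1 replicate 2. With limma on the deposited variance-stabilized values, 557 genes were called higher and 249 lower by at least 1 unit, against 843 and 451 by at least 2-fold in edgeR. At low counts a difference on that scale is smaller than the log2 fold change, so the thresholds are not alike. Without M0 replicate 3 and M1 replicate 2, 178 noncoding genes were higher, against 273. The cause of these shifts was not tested. Leaving out 1 M0 or M1 library gave 3226 to 3654 genes higher, 3026 to 3474 lower, 773 to 996 at least 2-fold higher, 334 to 516 at least 2-fold lower, 208 to 262 noncoding genes higher and 179 to 242 lower, and without M2 replicate 2 the 6 counts were 3504, 3676, 875, 467, 274 and 248. With the replicate block 3623 genes were higher (846 by 2-fold or more, 272 noncoding) and 3830 lower (448 by 2-fold or more, 244 noncoding). Deviations of same-numbered M0 and M1 libraries correlated at -0.0416, -0.105 and -0.133. These values gave no sign of pairing by number, but with 3 libraries in each group they cannot exclude it. The median log2 fold change of all genes lay between -0.0216 and 0.0123 over the settings, and 46.8% to 52.3% of calls were higher. Of 2560 recomputed list counts, 142 moved by over 1.5 times.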
